A study of Homo sapiens with 6 samples.

Results

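The 47 genes described here encode SR proteins, heterogeneous nuclear ribonucleoproteins (hnRNPs) and other sequence-specific regulators of pre-mRNA splicing, and were taken by gene symbol from the 32679 genes of the expression table. They comprised 12 SR proteins (SRSF1 to SRSF12), 2 SR-like proteins (TRA2A and TRA2B), 20 hnRNPs, 3 polypyrimidine tract binding (PTB) proteins, 8 other regulators (MBNL1, MBNL2, QKI, RBFOX2, CELF1, ESRP1, ESRP2 and KHDRBS1) and 2 kinases of SR proteins (SRPK1 and SRPK2). Their RNA was measured by sequencing in HEY, a line of ovarian cancer cells, upon knockdown of PQBP1, a splicing factor that contacts the U5 small nuclear ribonucleoprotein. By the sample labels, 3 samples carried a control hairpin with no treatment (shNC), and 3 carried a hairpin against PQBP1 and received doxycycline at 1 µg per ml (shPQBP1), all collected at day 3. By these labels the hairpin and doxycycline differed together between the groups and their parts cannot be told apart, and whether the shNC cells also received doxycycline is not stated beyond the label. The lines of both groups were stable lines made by lentiviral transduction and puromycin selection, and the design text calls the samples biological triplicates.

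SR proteins carry RNA recognition motifs and a domain rich in arginine and serine. They bind exonic enhancers and help the U1 particle and U2AF to define an exon. The hnRNPs coat nascent RNA and often silence nearby splice sites, so that the balance of the families shapes which exons are joined. SRPK kinases phosphorylate SR proteins in the cytoplasm and license their import into the nucleus. Many of these genes limit their own level by splicing in an exon that carries a premature stop codon, which sends the transcript to nonsense-mediated decay (NMD).

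The deposited unit was FPKM, which counts fragments by the length of the transcript and the mapped fragments of the sample. FPKM is scaled to the RNA of its own sample, so that a fall in the RNA of a gene and a change in the total RNA per cell cannot be told apart. The knockdown was read from PQBP1 itself, at 7.18, 6.67 and 6.93 FPKM in shNC and 1.68, 1.72 and 1.44 FPKM in shPQBP1. All shPQBP1 samples lay below all shNC samples (log2 fold change -2.04, SE 0.10, limma with Benjamini-Hochberg adjustment over 11413 genes, adjusted p = 0.00154). Of the epithelial markers, the keratins KRT7, KRT8 and KRT18 were listed at 52.8 to 94.6 FPKM, KRT19 at 1.19 to 2.10, EPCAM at 0.79 to 1.13 and the cadherin CDH1 at or below 0.06, and vimentin was at 1112 to 1343. Of the leukocyte markers, PTPRC was at 0 in all 6 samples and CD68, also a lysosomal protein of other cells, was at 9.12 to 21.16. Of the samples, shNC 1 stood apart, with the lowest correlations to the others across genes (Pearson r of 0.926 to 0.955). Read depth was not recovered from the values, so that the spread between samples is the error used throughout.

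The comparison asked whether the RNA levels of these regulators differed upon loss of PQBP1, itself a splicing factor. Few differences were found. Of the 47 genes, 44 had a mean of at least 1 FPKM and were tested, and none of the 44 reached an adjusted p under 0.05 in limma, which called 2.91% of all 11413 genes tested. With no adjustment, 8 of the 44 (18.2%) had a p under 0.05, below the background of 23.6% of all genes. Of these 8, 2 were higher in shPQBP1 (4.55% of the 44, against 11.9% of all genes) and 6 were lower (13.6%, against 11.7%). Without shNC 3, shPQBP1 1, shPQBP1 2 or shPQBP1 3 the count of 8 became 3, 2, 3 or 4, while the share of all genes became 19.6%, 15.6%, 18.6% or 15.8%. Without shNC 1 or shNC 2 it became 9 or 6, with 24.8% or 25.8% of all genes. No member had both an unadjusted p under 0.05 and a fold change over 2, which 1.52% of all genes had.

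The samples of the groups did not overlap in 13 of the 44 members (29.5%), against 34.4% of all genes. SRSF8, MBNL2, TRA2A, HNRNPDL, SRPK1 and RBFOX2 were the 6 whose shPQBP1 samples all lay above shNC (13.6%, against 17.3% of all genes). KHDRBS1, TRA2B, HNRNPUL2, HNRNPLL, HNRNPL, HNRNPD and HNRNPK were the 7 whose shPQBP1 samples all lay below (15.9%, against 17.1%). With 3 samples against 3, an exact permutation test of a single gene cannot go below p = 0.1, the value that each of these 13 genes had.

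The sizes of the differences were small. The median log2 fold change of the 44 members was 0.03, and that of all genes tested was 0.02. The median absolute log2 fold change was 0.14 in the members and 0.21 in all genes. The fold change was under 1.25 in either direction in 36 members and over it in 8. The 95% interval of the difference lay within 1.5-fold in either direction for 32 of the 44 members and within 2-fold for 39. It reached past 2-fold for the other 5, which were HNRNPH2, HNRNPH1, PTBP2, MBNL1 and MBNL2. For HNRNPH2, HNRNPH1, PTBP2 and MBNL1 the interval also held 0, and for MBNL2 it did not. These intervals are those of the values as deposited, and some members moved when GC content was corrected for.

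**Figure D1:**
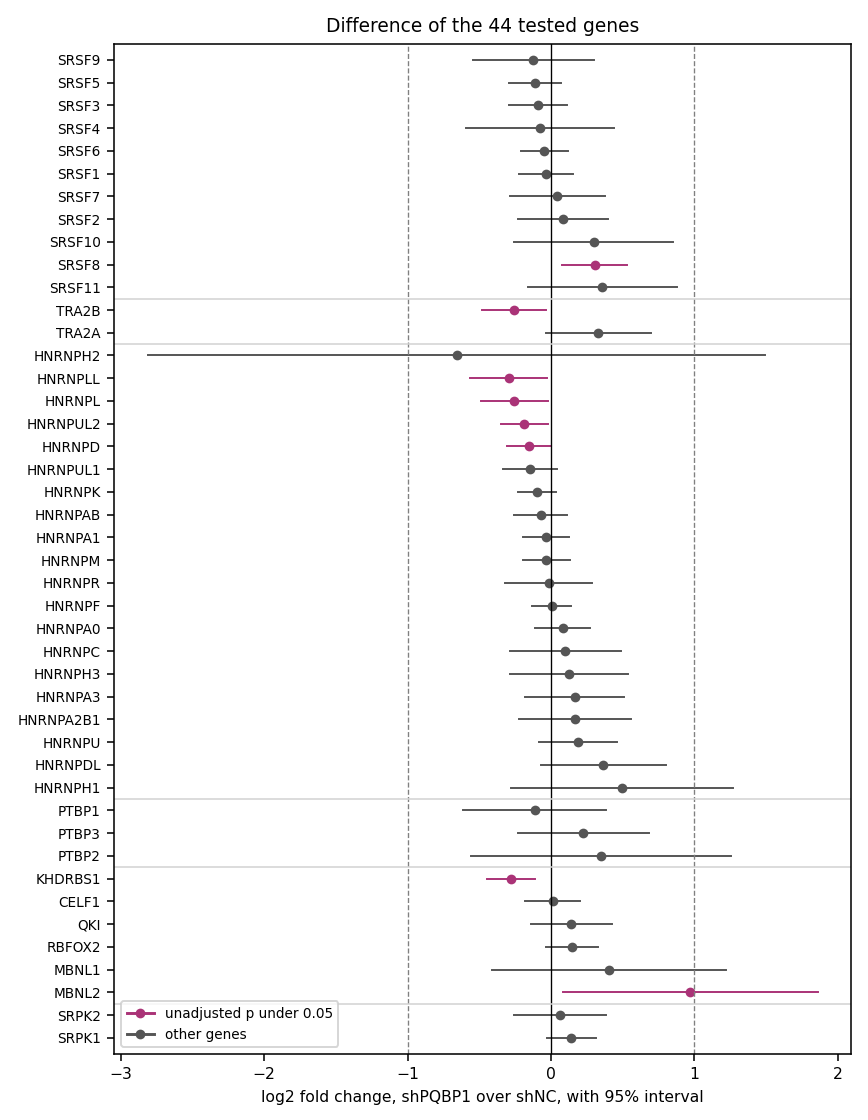
The log2 fold change of each of the 44 tested genes (horizontal axis, shPQBP1 over shNC, on log2(FPKM + 0.1)) with its 95% limma interval, by family from SR proteins at the top to SR protein kinases at the bottom. Dashed lines mark a 2-fold change in either direction. The 8 genes with an unadjusted p under 0.05 are coloured, MBNL2 has the highest estimate at 0.97, and HNRNPH2 has the widest interval, from -2.81 to 1.49.

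In absolute terms the hnRNPs led. The FPKM of the 20 hnRNPs summed to 1663 ± 80.7 in shNC and 1670 ± 63.1 in shPQBP1 (SD, n = 3). Those of the 12 SR proteins summed to 289.0 ± 4.78 and 286.8 ± 4.39 (SD, n = 3). Both sums differed between the groups by less than the spread between samples. All 47 genes together made up 0.701% ± 0.0586 of the total FPKM of a sample in shNC and 0.761% ± 0.0315 in shPQBP1 (SD, n = 3), while the total itself was 305884 in shNC and 282814 in shPQBP1 on average. Of the 47 genes, 7 ranked among the 500 highest genes of the table by mean FPKM and 18 among the 1000 highest.

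The 3 highest members were hnRNPs that bind nascent transcripts in nearly all cells. HNRNPA1, which represses exons and binds microRNA precursors, ranked at 88 in the table with 279.63, 306.98 and 301.42 FPKM in shNC and 296.91, 295.22 and 274.57 FPKM in shPQBP1. The groups overlapped in part, with a log2 fold change of -0.03 and a 95% interval of -0.20 to 0.13. Quantile normalization turned the sign, to 0.05. Removing from each sample its trend with the GC content and length of transcripts, here called the GC correction, gave -0.13 (limma, unadjusted p = 0.0409). HNRNPK, a KH-domain protein that binds C-rich RNA, was at 201.36, 204.01 and 203.53 in shNC and 188.78, 187.44 and 192.91 in shPQBP1. Its groups did not overlap, yet the log2 difference was -0.10 (SE 0.05, limma with Benjamini-Hochberg adjustment, adjusted p = 0.306), and it was -0.0025 after quantile normalization and -0.21 with the GC correction. HNRNPA2B1, which binds UAG-type motifs in RNA, was at 126.45, 186.04 and 180.51 in shNC and 198.73, 177.73 and 169.81 in shPQBP1. Only shNC 1 lay apart from the other 5 samples of this gene. The levels of HNRNPA1 carry a limit, because the annotation names 74 pseudogenes after it, 16 after HNRNPA3, 9 after HNRNPC and 5 each after HNRNPK and SRSF3, and how reads shared with such copies were assigned is not given in the sources used here.

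**Figure D2:**
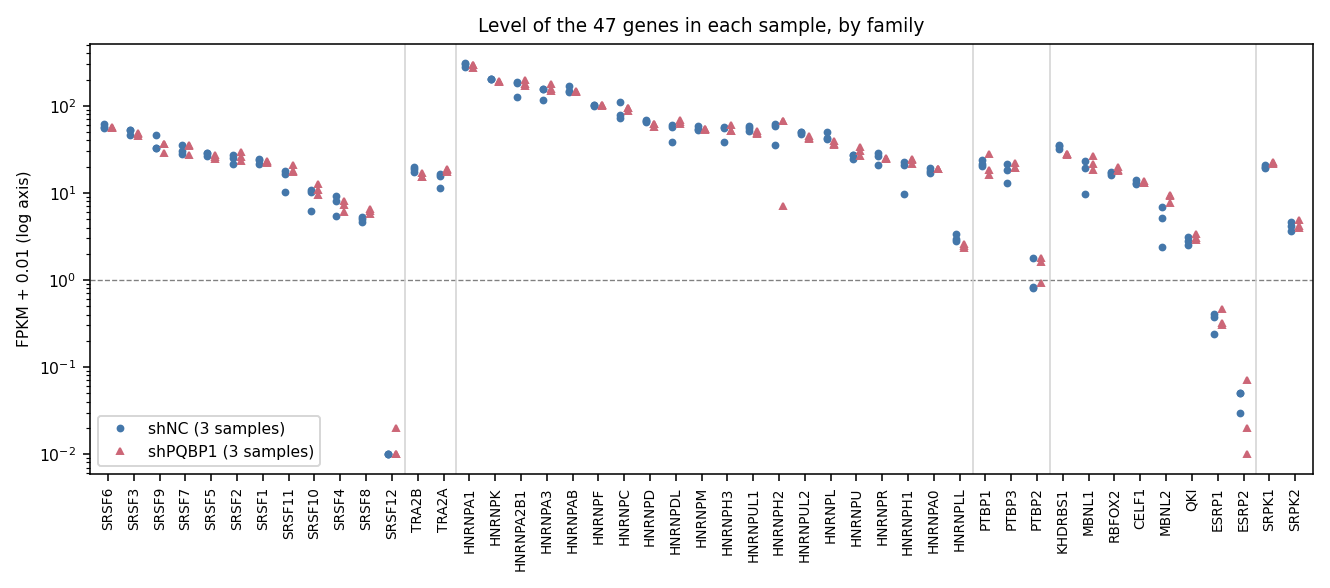
The FPKM plus 0.01 of each of the 47 genes in each sample (vertical axis, logarithmic), by family from SR proteins at the left to SR protein kinases at the right and by mean level within a family. Circles are the 3 shNC and triangles the 3 shPQBP1 samples, and the dashed line marks 1 FPKM. HNRNPA1 is the highest gene at 274.57 to 306.98 FPKM, SRSF12, ESRP1 and ESRP2 lie under 1 FPKM in every sample, and 1 shPQBP1 sample of HNRNPH2 lies at 7.07 FPKM, far below its group.

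Of the SR proteins, 11 of 12 were tested, with estimates that ran from -0.12 to 0.36 around a median log2 fold change of -0.03, and 1 had an unadjusted p under 0.05. This was SRSF8 (ENSG00000263465, chromosome 11, hg38), a gene closely related to SRSF2. It was measured at 5.23, 4.59 and 5.04 FPKM in shNC and 5.72, 6.17 and 6.52 FPKM in shPQBP1. All shPQBP1 samples lay above all shNC samples, by a log2 fold change of 0.30 (SE 0.09, limma with Benjamini-Hochberg adjustment, adjusted p = 0.134). SRSF8 was also the tested SR protein with the lowest level.

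SRSF11, SRSF5 and SRSF10 were the next SR proteins by p, and their groups overlapped. SRSF11, which binds U2AF, was listed at 10.31, 17.72 and 16.45 FPKM in shNC and 20.62, 17.36 and 17.80 FPKM in shPQBP1. SRSF10, which turns into a repressor of splicing when heat shock removes its phosphates, was at 6.21, 10.09 and 10.85 in shNC and 10.74, 9.47 and 12.48 in shPQBP1. In both genes shNC 1 was the lowest of the 6 samples, and the log2 fold change of SRSF11 went from 0.36 to 0.12 and that of SRSF10 from 0.30 to 0.05 without it. SRSF5, a shuttling SR protein, was at 26.36, 28.85 and 28.42 in shNC and 26.90, 25.93 and 24.55 in shPQBP1, a log2 fold change of -0.11 (SE 0.08, limma with Benjamini-Hochberg adjustment, adjusted p = 0.389).

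The other tested SR proteins had group means within 1.25-fold of each other. SRSF1, the founding member of the family and a proto-oncogene, averaged 23.2 ± 1.39 FPKM in shNC and 22.7 ± 0.818 FPKM in shPQBP1 (SD, n = 3). The log2 difference of SRSF1 was -0.03, with a 95% interval of -0.22 to 0.15, and the GC correction gave -0.27 (limma, unadjusted p = 0.0590). SRSF3, the smallest family member, averaged 50.2 ± 3.73 and 47.02 ± 2.14, and SRSF6, the SR protein with the highest level, 58.0 ± 2.88 and 56.1 ± 0.246 (SD, n = 3). SRSF2, a speckle protein whose gene overlaps MFSD11 on the opposite strand, averaged 24.7 ± 2.88 and 26.2 ± 3.22, and SRSF7, which has a zinc knuckle, 31.4 ± 3.88 and 32.4 ± 4.33 (SD, n = 3). SRSF4 averaged 7.59 ± 1.92 and 7.08 ± 0.962, and SRSF9 37.2 ± 7.85 and 33.9 ± 4.61 (SD, n = 3), and in both the highest sample was shNC 1. Whether the libraries kept strand is not given in the sources used here, so that reads of SRSF2 and of its partner may have been counted together. SRSF12, a relative of SRSF10, was not tested and was listed at 0 in 5 samples and at 0.01 FPKM in shPQBP1 1.

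The SR-like pair TRA2A and TRA2B, which bind GAA-rich exonic enhancers through the same type of RNA recognition motif, had estimates of opposite sign. TRA2B (ENSG00000136527) was at 17.40, 19.00 and 19.95 FPKM in shNC and 15.02, 17.02 and 15.03 FPKM in shPQBP1. TRA2A (ENSG00000164548) was at 11.35, 15.68 and 16.52 in shNC and 18.74, 17.32 and 18.09 in shPQBP1. Neither gene's groups overlapped, TRA2B being lower and TRA2A higher in each shPQBP1 sample. The log2 fold change of TRA2B was -0.26 (SE 0.09, limma with Benjamini-Hochberg adjustment, adjusted p = 0.167), and after the values were corrected for the GC content and length of the transcripts it was -0.42 with an adjusted p of 0.0478, in a range of 0.0478 to 0.387 over all alternatives. That of TRA2A was 0.33 (SE 0.15, limma with Benjamini-Hochberg adjustment, adjusted p = 0.245) and 0.16 without shNC 1. Their summed FPKM was 33.3 ± 4.04 in shNC and 33.7 ± 0.610 in shPQBP1 (SD, n = 3).

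Both genes hold an exon that is left out of the canonical transcript and spliced into a transcript annotated to undergo NMD, and a gene-level FPKM adds up transcripts with and without it. The stretches of these exons that are read as codons in that transcript are shown because the enhancer type that the TRA2 proteins bind occurs in them, with runs of at least 2 GAA in capitals (hg38, GENCODE release 44, minus strand, 5′ to 3′). Of the exons of this kind, the shortest of each gene was taken. The TRA2B stretch lies at chr3:185931775-185931852, in an exon of 276 bases. The TRA2A stretch, at chr7:23522354-23522432, fills its exon of 79 bases, so that the annotated stop codon does not lie in that exon.
TRA2B: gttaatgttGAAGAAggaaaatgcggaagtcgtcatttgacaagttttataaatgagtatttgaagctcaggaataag
TRA2A: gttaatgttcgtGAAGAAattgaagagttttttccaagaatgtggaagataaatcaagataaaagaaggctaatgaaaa
The exons share their initial 9 bases, and each stretch holds 1 run of GAAGAA on the RNA strand. The letters GAAGAA, searched on the RNA strand alone, were found in the initial 78 bases of 9.22% of the 141463 internal exons of at least that length in canonical protein-coding transcripts. At least 1 NMD transcript is annotated for 37 of the 47 members (78.7%), as against 48.9% of the 9968 protein-coding genes tested. The 37 include SRSF12, ESRP1 and ESRP2, which were not tested, so that the sets compared are not alike in this. Nor were the sets matched for the number of annotated transcripts per gene, which ran up to 84 in the members (HNRNPA1). The use of these exons was not measured here, because the table gives 1 value per gene.

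All 20 hnRNPs were tested, with a median log2 fold change of -0.02. None had an unadjusted p under 0.05 in the higher direction (11.9% of all genes did) and 4 of the 20 had one in the lower direction (11.7% of all genes). HNRNPUL2 (ENSG00000214753), a relative of the scaffold protein HNRNPU, was at 50.17, 47.39 and 49.73 FPKM in shNC and 43.21, 41.50 and 44.74 FPKM in shPQBP1. HNRNPD (ENSG00000138668), known as AUF1 and for the decay of AU-rich mRNAs, was at 68.18, 67.06 and 65.90 in shNC and 57.69, 61.80 and 61.11 in shPQBP1. In each, the highest shPQBP1 sample lay below the lowest shNC sample. Their log2 fold changes were -0.19 (SE 0.07, limma with Benjamini-Hochberg adjustment, adjusted p = 0.171) and -0.16 (SE 0.06, adjusted p = 0.209), fitted fold changes of 0.879 and 0.898.

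The paralogs HNRNPL and HNRNPLL, which bind CA-rich RNA and regulate exons of CD45 in lymphocytes, were both lower. HNRNPL (ENSG00000104824) was at 49.53, 41.19 and 42.57 FPKM in shNC and 35.69, 39.60 and 35.98 FPKM in shPQBP1. HNRNPLL (ENSG00000143889) was at 2.93, 2.77 and 3.35 in shNC and 2.56, 2.45 and 2.30 in shPQBP1. Neither gene's groups overlapped, although the gap of HNRNPL was narrow beside the spread of shNC. The difference on the log2 scale was -0.26 for HNRNPL (SE 0.10, limma with Benjamini-Hochberg adjustment, adjusted p = 0.183) and -0.29 for HNRNPLL (SE 0.11, adjusted p = 0.182). With the correction for GC content and length these became -0.13 and -0.53, so that the size of each depended on it by more than 1.5 times.

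The next hnRNPs by p had intervals that held 0. HNRNPDL, a paralog of HNRNPD, was at 38.04, 60.54 and 56.70 FPKM in shNC and 68.51, 62.34 and 65.23 FPKM in shPQBP1. HNRNPH1, which binds G-rich motifs, was at 9.67, 20.71 and 22.70 in shNC and 23.89, 21.73 and 24.56 in shPQBP1. In both shNC 1 was the lowest of the 6 samples, and without it the log2 fold change went from 0.36 to 0.16 for HNRNPDL and from 0.49 to 0.11 for HNRNPH1. HNRNPUL1 was at 58.03, 50.93 and 55.00 in shNC and 47.78, 51.46 and 48.93 in shPQBP1. HNRNPU, which ties RNA to the nuclear scaffold, was at 24.40, 27.01 and 27.48 in shNC and 33.96, 29.94 and 26.45 in shPQBP1. Both had overlapping groups, with log2 fold changes of -0.14 (SE 0.08, limma with Benjamini-Hochberg adjustment, adjusted p = 0.296) and 0.19 (SE 0.11, adjusted p = 0.333). Both genes also overlap a gene on the opposite strand, HNRNPUL1 that of TGFB1 and HNRNPU that of COX20. Further members share this limit, among them HNRNPD, HNRNPK, MBNL1, HNRNPA2B1, HNRNPA3, HNRNPAB, HNRNPH3, CELF1, SRSF9, SRPK1 and SRPK2.

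The remaining hnRNPs had overlapping groups. HNRNPF, which like HNRNPH1 binds G tracts, showed the closest group means, at 100.8 ± 0.325 FPKM in shNC and 101.2 ± 1.88 in shPQBP1 (SD, n = 3), with a 95% interval of the log2 difference of -0.13 to 0.14. HNRNPA3 averaged 144 ± 23.4 and 160.2 ± 15.9, HNRNPAB 154 ± 11.7 and 146 ± 3.58, and HNRNPC, which binds uridine tracts and keeps Alu elements out of mRNA, 87.0 ± 19.96 and 91.9 ± 3.47 (SD, n = 3). HNRNPM averaged 54.9 ± 2.87 and 53.6 ± 0.904, HNRNPH3 50.2 ± 10.4 and 54.1 ± 4.86, HNRNPR 25.2 ± 3.99 and 24.7 ± 0.435, and HNRNPA0 17.9 ± 1.29 and 18.9 ± 0.0551 (SD, n = 3). Each of these means differed between the groups by less than the larger of the 2 SDs, and the spread was the larger in shNC for HNRNPA0, HNRNPA3, HNRNPAB, HNRNPC, HNRNPH3, HNRNPM and HNRNPR.

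**Figure D3:**
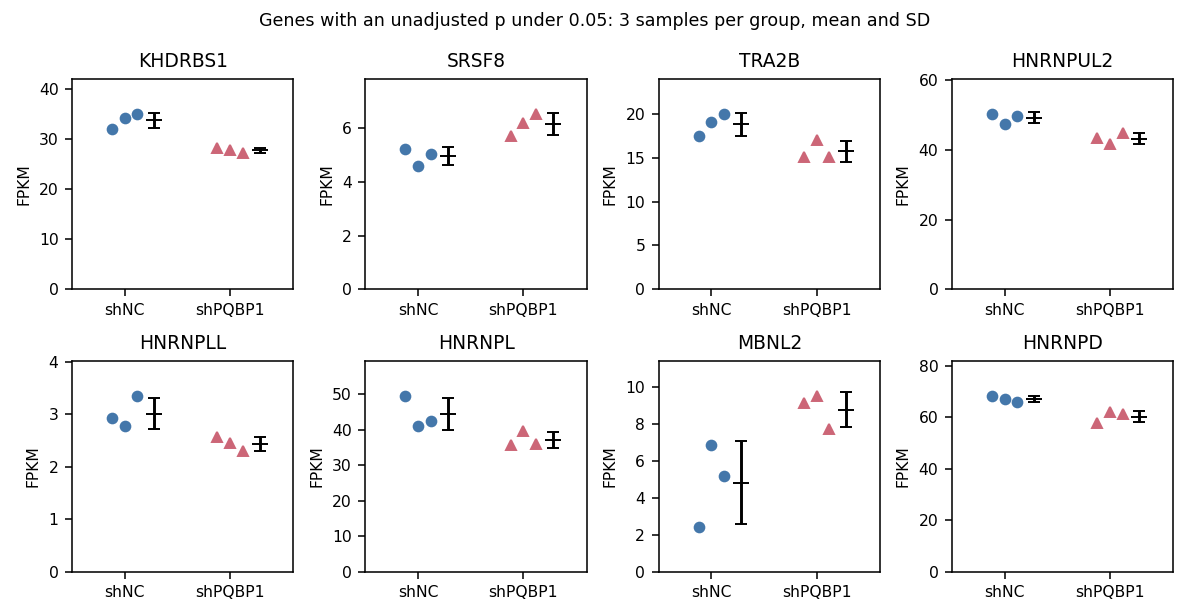
The FPKM (vertical axes, from 0) of the 8 genes with an unadjusted p under 0.05, in the 3 shNC samples (circles) and the 3 shPQBP1 samples (triangles), with the mean and SD of each group in black. In none of the 8 do the groups overlap, and the shPQBP1 mean is above the shNC mean in SRSF8 (6.14 against 4.95 FPKM) and MBNL2 (8.76 against 4.80 FPKM) and below it in the other 6.

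HNRNPH2 (ENSG00000126945) was the member with the widest interval, with 1 sample far from the rest. It was at 35.25, 61.33 and 58.74 FPKM in shNC and 67.73, 7.07 and 66.65 FPKM in shPQBP1. The sample shPQBP1 2 was the lowest of the 6 and the other shPQBP1 samples were the highest. The log2 fold change was -0.66 (SE 0.89, limma with Benjamini-Hochberg adjustment, adjusted p = 0.658), and without shPQBP1 2 it was 0.42 (adjusted p = 0.400).

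The same sample was the one with a high value for a neighbouring gene model. RPL36A-HNRNPH2 (ENSG00000257529) is an annotated read-through gene that joins exons of RPL36A, a ribosomal protein gene upstream, to an exon of HNRNPH2. It was listed at 0 in the 3 shNC samples and in shPQBP1 1, at 32.06 FPKM in shPQBP1 2 and at 0.95 FPKM in shPQBP1 3. On hg38 (GENCODE release 44), exon 4 of the read-through transcript, chrX:101411936-101412297 on the plus strand, lies inside exon 2 of HNRNPH2, chrX:101411936-101414133, and starts at the same base. The junction that tells this model from HNRNPH2 is shown, with the last 15 bases of its exon 3 (chrX:101391755-101391822) in lower case and the initial 15 bases of the shared exon in capitals, 5′ to 3′.
RPL36A-HNRNPH2: attttccggaaaaagCTACACCAAAATTGC
Reads that lie wholly in the shared 362 bases match both gene models. Multiplying FPKM by the length of the annotated transcript, 2296 bases for HNRNPH2 and 572 bases for the read-through transcript, gives fragments scaled to the depth of a sample, which can be added. In shPQBP1 2 the read-through model held 18.3 and HNRNPH2 held 16.2, a sum of 34.6 scaled fragments before rounding. The sums of the other samples were 80.9, 140.8 and 134.9 in shNC and 155.5 and 153.6 in shPQBP1. The sum of shPQBP1 2 therefore stayed below that of the other 5 samples, and the lengths that the authors' program used are not given in the sources used here. RPL36A itself was at 101.28, 90.97 and 91.57 FPKM in shNC and 82.59, 81.44 and 77.41 FPKM in shPQBP1, with no break at shPQBP1 2. A similar pattern in the same sample was seen in HNRNPUL2-BSCL2, a read-through gene of another member, at 0.77, 0.87 and 0.80 in shNC and 0.63, 5.74 and 0.36 in shPQBP1. HNRNPUL2 itself, at 41.50 in that sample, was close to the other shPQBP1 samples. How fragments were divided between gene models was not tested.

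**Figure D4:**
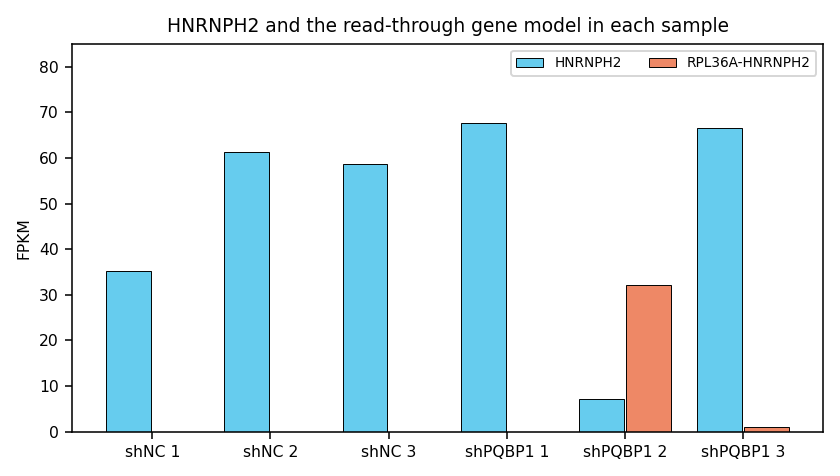
The FPKM (vertical axis, from 0) of HNRNPH2 (blue) and of the read-through gene RPL36A-HNRNPH2 (orange) in each of the 6 samples. In shPQBP1 2, HNRNPH2 is at 7.07 and the read-through gene at 32.06 FPKM, and in the other 5 samples HNRNPH2 is at 35.25 to 67.73 and the read-through gene at 0.95 or below.

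The PTB proteins, which bind CU-rich tracts and repress exons, had no member with an unadjusted p under 0.05. PTBP1, the form of most dividing cells, was at 23.89, 21.52 and 20.37 FPKM in shNC and 18.38, 16.15 and 27.73 FPKM in shPQBP1. The shPQBP1 samples of PTBP1 spread from the lowest to the highest of the 6. PTBP3 averaged 17.6 ± 4.24 and 20.2 ± 1.51 (SD, n = 3). PTBP2, the form that rises in neurons as PTBP1 is lost, was near the limit of 1 FPKM, at 0.80, 1.78 and 0.82 in shNC and 1.77, 0.92 and 1.59 in shPQBP1. Both groups of PTBP2 held low and high samples, and its 95% interval of the log2 difference ran from -0.56 to 1.26.

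Among the other regulators, KHDRBS1 (ENSG00000121774, chromosome 1) had the smallest p of all 47 members. It encodes SAM68, a STAR-domain protein that links signalling to splicing. It was at 32.09, 34.20 and 35.05 FPKM in shNC and 28.24, 27.89 and 27.20 FPKM in shPQBP1. All shPQBP1 samples lay below all shNC samples, by a fitted fold change of 0.823 (log2 fold change -0.28, SE 0.07, limma with Benjamini-Hochberg adjustment, adjusted p = 0.0894). Without shNC 1 the log2 fold change was -0.32 and the adjusted p 0.0444, in a range of 0.0444 to 0.301 over all alternatives. QKI, another STAR-domain protein, was at 2.51, 3.11 and 2.78 in shNC and 3.33, 2.90 and 3.05 in shPQBP1, with overlapping groups.

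The muscleblind protein MBNL2 (ENSG00000139793, chromosome 13), which promotes adult exon choices, had the highest estimate of all members. It was at 2.40, 6.86 and 5.15 FPKM in shNC and 9.09, 9.49 and 7.71 FPKM in shPQBP1. Its groups did not overlap, but the highest of its shNC samples was over 2-fold the lowest. The log2 fold change was 0.97 (SE 0.37, limma with Benjamini-Hochberg adjustment, adjusted p = 0.184), and it was 0.55 without shNC 1. MBNL1, its paralog, was at 9.67, 23.13 and 19.49 in shNC and 26.29, 21.25 and 18.14 in shPQBP1. For MBNL1 the log2 fold change was 0.40 with all samples and 0.03 without shNC 1, the lowest of its 6 samples.

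RBFOX2, which binds GCAUG and is expressed in mesenchymal cells, was at 16.11, 16.93 and 17.22 FPKM in shNC and 17.65, 18.47 and 19.56 FPKM in shPQBP1. All its shPQBP1 samples lay above all shNC samples, by a log2 fold change of 0.15 (SE 0.08, limma with Benjamini-Hochberg adjustment, adjusted p = 0.286). CELF1, which binds GU-rich RNA, averaged 13.1 ± 0.751 in shNC and 13.2 ± 0.502 in shPQBP1 (SD, n = 3), with a 95% interval of the log2 difference of -0.18 to 0.20. The epithelial splicing regulators were under the limit for testing. ESRP1 was at 0.23, 0.37 and 0.40 in shNC and 0.31, 0.29 and 0.45 in shPQBP1, and ESRP2 at 0.02, 0.04 and 0.04 in shNC and 0.01, 0.06 and 0.00 in shPQBP1. Their low level was measured beside the marker levels given above, which were mixed. Vimentin was high, CDH1 near absent and EPCAM and KRT19 low, while the epithelial keratins KRT7, KRT8 and KRT18 were high.

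The kinases that phosphorylate SR proteins were close to level. SRPK1 was at 19.32, 20.05 and 20.79 FPKM in shNC and 22.87, 21.68 and 21.81 FPKM in shPQBP1. Its groups did not overlap, with a log2 fold change of 0.14 (SE 0.07, limma with Benjamini-Hochberg adjustment, adjusted p = 0.271), which the correction for GC content and length turned to -0.02. SRPK2 averaged 4.15 ± 0.501 and 4.33 ± 0.519 (SD, n = 3) with overlapping groups.

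The differences ran with GC content, and so did the deviation of shNC 1. In 14 of the 44 tested members shNC 1 was more than 1.25-fold below the mean of shNC 2 and shNC 3, and it was above by as much in 3, while over all genes these shares were 24.9% and 13.8%. Of the 14 members, 13 had a transcript of under 45% GC, as did 29 of all 44 tested members. The median GC content was 41.7% in the members and 47.5% in all genes. Across the 44 members, the deviation of shNC 1 correlated with GC content (Pearson r = 0.55, Spearman rho = 0.57), as it did across all genes (rho = 0.61). GC content correlated with the log2 fold change as well (r = -0.39, rho = -0.43, and rho = -0.46 across all genes), and rho was -0.17 in the members without shNC 1. With the correction for GC content and length, the log2 fold change became -0.31 for SRSF3, -0.25 for SRSF6, -0.25 for HNRNPD, -0.34 for HNRNPR, 0.21 for TRA2A, 0.15 for SRSF2, 0.15 for SRSF11, 0.10 for PTBP2, 0.13 for MBNL1, 0.03 for HNRNPU, -0.045 for HNRNPUL1 and -0.039 for SRSF9, and its sign turned in 16 members, SRSF10 and QKI among them. The correction moved some other members less, from 0.49 to 0.45 for HNRNPH1, 0.364 to 0.357 for HNRNPDL and 0.30 to 0.28 for SRSF8. It moved KHDRBS1 from -0.28 to -0.24 and RBFOX2 from 0.146 to 0.141. MBNL2 went from 0.97 to 0.69 (limma, unadjusted p = 0.0286). With the correction, an unadjusted p under 0.05 was found in 11 of the 44 members (25%, 2 of them higher and 9 of them lower). Of the 11385 genes in this fit, 27.7% had such a p (1797 of them higher and 1352 of them lower). These correlations are across genes that share the same 6 libraries, and they are given as a description. The part of library composition in the single differences was not tested further than by the values without shNC 1 and with the correction.

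**Figure D5:**
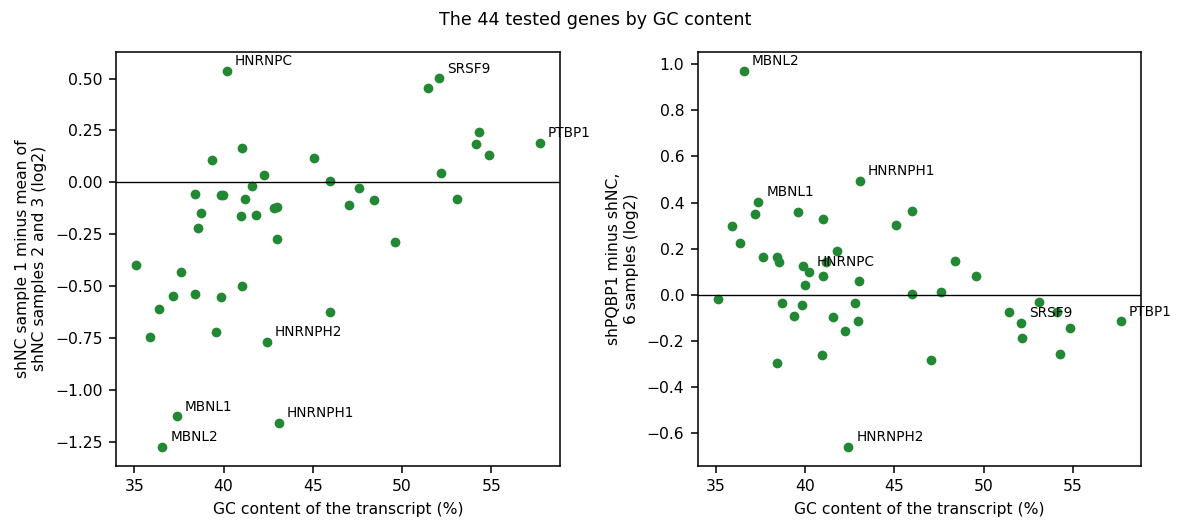
The 44 tested genes by the GC content of their canonical transcript (horizontal axes, percent). The vertical axis of the left panel is the log2 level of shNC 1 minus the mean of shNC 2 and shNC 3, and that of the right panel is the log2 fold change of shPQBP1 over shNC in all 6 samples. Genes of low GC content lie lower at the left and higher at the right, with Spearman rho of 0.57 and -0.43.

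Genes that act on or beside the members were set beside them. The 18 enzymes and import factors of SR proteins (CLK and other kinases, phosphatases, transportins and arginine methyltransferases) included 15 tested genes, of which 1 was higher and 1 was lower with an unadjusted p under 0.05 (11.9% and 11.7% of all genes) and none was at an adjusted p under 0.05 in limma. PPP1CB, a catalytic subunit of protein phosphatase PP1, was at 13.87, 21.95 and 21.67 FPKM in shNC and 28.07, 25.25 and 27.75 FPKM in shPQBP1 (log2 fold change 0.52, SE 0.19, limma with Benjamini-Hochberg adjustment, adjusted p = 0.170). PRMT1, which methylates arginines of hnRNPs, was at 43.26, 35.95 and 36.61 in shNC and 30.64, 33.32 and 32.20 in shPQBP1 (log2 fold change -0.26, SE 0.10, limma with Benjamini-Hochberg adjustment, adjusted p = 0.170). In both the groups did not overlap, and shNC 1 was the extreme sample.

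A list of 52 other RNA-binding regulators of splicing had 42 tested genes, of which 1 was higher and 7 were lower with an unadjusted p under 0.05, beside 11.9% and 11.7% of all genes, and none had an adjusted p under 0.05 in limma. The median log2 fold change of the 42 was -0.07, and the gene that was higher was KHDRBS3, a paralog of KHDRBS1, at 0.23. Among those that were lower were RBM4 and YBX1, the 2 with the smallest p. RBM4, a regulator of alternative exons, was at 16.53, 14.67 and 15.30 FPKM in shNC and 11.19, 11.54 and 11.85 FPKM in shPQBP1. YBX1, a cold-shock domain protein that packages mRNA, was at 509.05, 441.61 and 457.95 in shNC and 405.18, 411.28 and 378.77 in shPQBP1. Both genes were lower in each shPQBP1 sample than in any shNC sample, by log2 fold changes of -0.42 (SE 0.08, limma with Benjamini-Hochberg adjustment, adjusted p = 0.0511) and -0.24 (SE 0.08, adjusted p = 0.141).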

How the data were processed

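RNA-seq was read in 6 samples of HEY cells, 3 shNC and 3 shPQBP1, grouped by the sample labels. Per the study's methods and processing notes, poly(A) libraries were sequenced in pairs, and the authors mapped reads to hg38 with HISAT2 (2.2.0), sorted them with SAMtools (1.9), assembled and quantified with StringTie (1.3.0) and compared groups with edgeR. The annotation release, strand setting and FPKM settings are not given in the sources used here. FPKM values were used as deposited by the authors, 1 per gene and sample, rounded to 2 decimals. The authors' columns of fold change, p-value, q-value and significance were not used.

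Values were taken as log2(FPKM + 0.1), and genes with a mean of at least 1 FPKM were fitted with limma 3.58.1 in R 4.3.3 (lmFit, then a two-sided eBayes test with a mean-variance trend), and p-values were adjusted over 11413 genes by the method of Benjamini and Hochberg. A fold change on this scale understates the change of low genes. Low values of single-exon genes were searched for steps of whole reads, with a strength of 0.25 to 0.283 per sample. No reference was set for this strength, so that the search does not tell whether steps were present. Depth was not recovered, and no counting interval is given. If samples of a group did not come from separate cultures, the p-values measure technical spread only. The code was tested on simulated data. Exact permutation tests were computed in R, and sequences were read with Python 3.11.15. Transcript lengths, GC content and sequences came from GENCODE release 44 (GC content known for 11385 genes), whose gene models need not be those behind the table.

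The 47 members, their families, the list of 18 enzymes and import factors, the list of 52 other regulators (50 used, since MATR3 stood on 2 lines and KHDRBS2 was not analysed here) and the marker lists were chosen with earlier results of these data known. Per-sample values are given for the 20 members with the smallest p, the 3 highest and the 3 under the limit, with others added after their values were seen (HNRNPH2, PTBP1, PTBP2, MBNL1 and read-through genes), and for the 2 genes of each companion list with the smallest p. Among the marker lists, 4 of 6 epithelial, 2 of 4 Mullerian or ovarian, 4 of 4 mesenchymal, 1 of 4 leukocyte, 1 of 3 endothelial and 0 of 4 fibroblast genes were tested, and only FN1, a mesenchymal gene that was higher in shPQBP1 (log2 fold change 1.72), had an adjusted p under 0.05 in limma. The alternatives were pseudocounts of 1 and 0.01, no limit on the mean and a limit of 10 FPKM, median-of-ratios scaling, quantile normalization, no trend, the replicate number as a block, a correction for GC content and length (natural splines, 5 degrees of freedom each), both together, and each sample left out.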

Additional observations from a re-analysis of the deposited data

How the results depend on the processing

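The median log2 fold change of the members stayed within the spread between samples under all 16 alternatives, and no scaling moved the median of all genes by more than 0.1 on the log2 scale. No member had an adjusted p under 0.05 under 14 of the 16. With the correction for GC content and length there was 1 (TRA2B, as against 924 calls among all genes), and leaving out each sample in turn gave 0 to 1 (KHDRBS1, without shNC 1), with 30 to 464 calls among all genes. With an unadjusted p under 0.05 in the higher direction there were 0 members at a mean of at least 10 FPKM, where 36 were tested. There was 1 after quantile normalization, 1 with the replicate block and 0 to 3 with a sample left out. Among all genes the higher counts were, in the same order, 412 of 3661, 1168 of 11413, 968 of 11413 and 870 to 1629 of 11413. In the lower direction there were 9 members with the correction for GC content and length and 3 with no mean-variance trend. There was 1 with the replicate block, and there were 1 to 6 with a sample left out. Among all genes the lower counts were, in the same order, 1352 of 11385, 1312 of 11413, 872 of 11413 and 866 to 1311 of 11413. In both directions together, the members and all genes reached this p in 13.9% and 26.1% at a mean of at least 10 FPKM, 15.9% and 24.4% after quantile normalization, 11.4% and 23.3% with no trend, 4.55% and 16.1% with the block, and 25% and 27.7% with the correction. The replicate numbers did not pair the samples (correlations of the deviations of -0.19, -0.14 and -0.01), and the block left 0 of the 332 adjusted calls among all genes. With the block, the correction gave the same fold changes, 5 adjusted calls among all genes and 0 among the members.

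The sign of small differences turned in places. Median-of-ratios scaling gave -0.011 for HNRNPF and -0.0050 for CELF1, and quantile normalization gave 0.054 for HNRNPA1 and -0.0088 for CELF1. The correction for GC content and length, with or without the replicate block, turned 16 members, with log2 fold changes of -0.11 for SRSF7, -0.020 for SRSF10, -0.13 for HNRNPA0, -0.066 for HNRNPA2B1, -0.10 for HNRNPA3, -0.071 for HNRNPC, -0.034 for HNRNPH3, -0.079 for PTBP3, -0.15 for QKI, -0.013 for CELF1, -0.017 for SRPK1 and -0.022 for SRPK2, and of 0.013 for SRSF4, 0.052 for HNRNPAB, 0.075 for HNRNPM and 0.042 for PTBP1. With each sample left out, the values ran from -0.013 to 0.17 for SRSF2, -0.29 to 0.078 for SRSF4, -0.031 to 0.16 for SRSF7, -0.21 to 0.045 for SRSF9, -0.075 to 0.0014 for HNRNPA1, -0.012 to 0.27 for HNRNPA2B1, -0.019 to 0.28 for HNRNPC, -0.0030 to 0.021 for HNRNPF, -1.20 to 0.42 for HNRNPH2, -0.058 to 0.23 for HNRNPH3, -0.058 to 0.010 for HNRNPM, -0.15 to 0.077 for HNRNPR, -0.34 to 0.045 for PTBP1, -0.024 to 0.055 for CELF1 and -0.031 to 0.14 for SRPK2. The cause of these turns was not tested.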
